A study of Mus musculus with 6 samples.

Results

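*Ngfr* encodes the low-affinity neurotrophin receptor p75NTR, and it is described here with 6 other genes of the neurotrophin system, the ligand genes *Bdnf* and *Ntf3*, the kinase receptor genes *Ntrk2* and *Ntrk3*, and the sorting receptor genes *Sort1* and *Sorcs2*. These 7 genes of the 54532 in the count table were chosen by name with the counts of these libraries already known, so their differences between the populations are given as a description and carry no test. Filtering on low counts left 14801 genes for testing, among them 5 of the 7 (*Ngfr*, *Bdnf*, *Ntrk2*, *Sort1* and *Sorcs2*), while *Ntf3* and *Ntrk3* did not pass.

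The libraries came from Gli1-CreERT2; tdTomato mice on a c57BL/6 background, in which a tamoxifen-activated Cre made from the *Gli1* locus switches on the red reporter (Ai9) in cells that express *Gli1*. Mice 1 month old received tamoxifen and were harvested 24 h later, and sorted cells lacking CD45, CD31 and Ter119 were split into tdTomato+ (Gli1+) and tdTomato- (Gli1-) cells. Each population gave 3 bulk RNA-seq libraries, both populations were taken from the same mice, and all mice carried the driver and the reporter and received tamoxifen. The study text names costal cartilage as the source and the labels name the growth plate. The label marks cells in which the driver was active around the time of tamoxifen, whatever their type. The methods call the 3 libraries of a population biological replicates, and neither they nor the labels say whether a library held 1 animal or a pool.

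Neurotrophins are secreted as precursors that proteases cut to mature growth factors. Mature brain-derived neurotrophic factor (BDNF) and neurotrophin-4 bind TrkB, and neurotrophin-3 binds TrkC, while p75NTR binds these ligands and also binds the precursors together with sortilin-family receptors. p75NTR has no kinase of its own. It is known from neurons, Schwann cells and neural crest derivatives, and its antibody epitope (CD271) is widely used to enrich mesenchymal progenitors from bone marrow.

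Only the promoters of *Ngfr* and *Ntrk2*, receptor genes detected in every library, are printed, to show the sequence in front of each RefSeq start. Both are the 250 bases before the annotated start in RefSeq (GRCm38.p6), written 5′ to 3′ on the strand of the gene in lower case, with each GC box (GGGCGG on either strand, the letters recognised by Sp-family factors) in capitals.
Ngfr (chr11:95587699-95587948, minus strand): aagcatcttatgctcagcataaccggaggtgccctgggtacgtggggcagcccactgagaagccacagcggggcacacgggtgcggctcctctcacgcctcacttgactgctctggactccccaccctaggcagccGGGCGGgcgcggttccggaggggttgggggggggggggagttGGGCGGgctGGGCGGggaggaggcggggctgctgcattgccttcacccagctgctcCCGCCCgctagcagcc
Ntrk2 (chr13:58806319-58806568, plus strand): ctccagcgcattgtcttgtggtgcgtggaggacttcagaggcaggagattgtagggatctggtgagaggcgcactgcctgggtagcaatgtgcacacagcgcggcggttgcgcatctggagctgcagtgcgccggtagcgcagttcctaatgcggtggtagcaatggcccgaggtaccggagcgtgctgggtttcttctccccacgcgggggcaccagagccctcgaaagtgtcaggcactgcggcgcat

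The *Ngfr* sequence holds 4 GC boxes that do not overlap each other, ending 108, 66, 57 and 10 bases before the start. In the count table *Ngfr* begins at 95587735 on its strand, before the RefSeq start. The last printed bases, with the GC box nearest the start, therefore lie inside the gene as counted. Over the 300-base window that adds the 50 bases after the start, *Ngfr* had 23 CpG dinucleotides and a GC content of 71.67%, against a median of 7 CpG over 32851 promoters, and *Ntrk2* also had 23. At least 4 GC boxes were present in 5.49% of all promoters and at least 1 in 35.7%. The window of *Ngfr* held no match to the letters of the GLI consensus GACCACCCA on either strand, which 0.253% of promoters have, and no TATAAA, which 13.6% have. RefSeq entries were also matched for *Bdnf* (7 starts) and *Ntf3* (2 starts), and none of these windows held the GLI letters.

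As a check of the labels, *Gli1* itself was read in every library before the neurotrophin genes. It had 86, 104 and 152 counts in Gli1+ replicates 1 to 3 and 14, 19 and 46 in Gli1- replicates 1 to 3, or 6.31 ± 1.72 against 1.47 ± 0.874 CPM (SD, n = 3), where CPM is the count relative to library size after scaling by the trimmed mean of M-values (TMM). The populations did not overlap, and the exact 2-sided permutation test gave p = 0.1, the smallest that 3 libraries against 3 allow.

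Totals lay between 17114101 and 18602482 counts per library. Gli1+ replicate 1 had a count on 15000 genes, against 20666 to 23360 in the other 5 libraries, and Gli1- replicate 1 stood apart in its leukocyte markers. The sum of the 10 chondrocyte markers, *Col2a1*, *Acan* and *Sox9* among them, was high in both populations. It was 8059 to 19390 CPM in Gli1+ libraries and 6154 to 25730 CPM in Gli1- libraries. *Matn1*, also on that list, was at 0, 4.48 and 0.315 CPM in Gli1+ libraries and 4.34, 43.2 and 0.370 CPM in Gli1- libraries. With edgeR's quasi-likelihood test over all genes, 0.0% of the 14801 met both thresholds of a call, |log2FC| above 1 with adjusted p below 0.05, the smallest adjusted p being 0.9999, and 514 (3.47%) had an unadjusted p under 0.05. DESeq2's Wald test called 30 genes, and with a replicate block 428, whereas edgeR with the block called 0.

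*Ngfr* (ENSMUSG00000000120, chr11:95568818-95587735, minus strand, 3446 exon bases) had several-fold more RNA in Gli1+ cells. Its counts were 622, 633 and 727 in Gli1+ replicates 1 to 3 and 143, 142 and 190 in Gli1- replicates 1 to 3. In TMM-scaled CPM these were 32.9, 38.9 and 38.2 against 7.40, 9.42 and 10.1. Every Gli1+ library was higher than every Gli1- library, and the lowest Gli1+ value was 3.27 times the highest Gli1- value. The means were 36.7 ± 3.26 and 8.95 ± 1.39 CPM (SD, n = 3), and the fitted log2FC, Gli1+ minus Gli1-, was 2.03 (standard error 0.39). Libraries with the same number, taken as 3 pairs, gave log2 differences of 2.14, 2.03 and 1.91. Neither the study text nor the labels say that equal numbers mark the same mice. In bulk RNA of this kind, a lower share of cells that express a gene and less RNA of it per cell cannot be told apart.

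**Figure D1:**
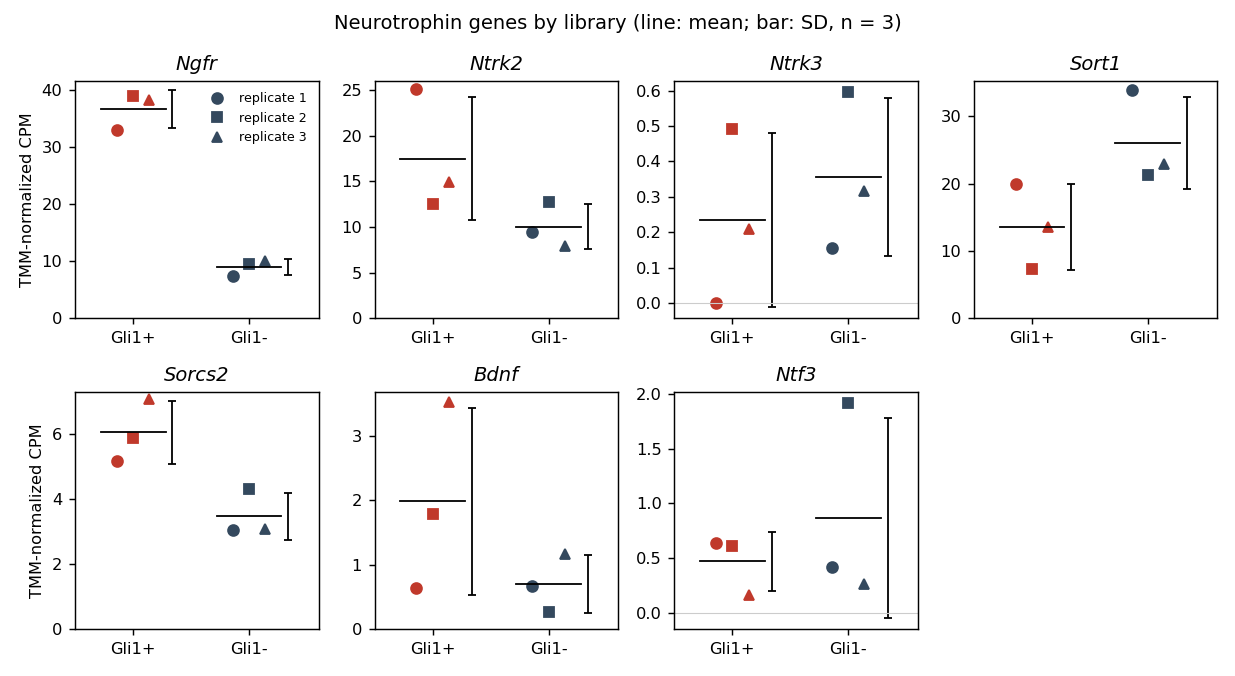
TMM-scaled CPM (y axis, a separate scale in each panel) of the 7 genes in the 3 Gli1+ libraries (red) and the 3 Gli1- libraries (dark blue), with symbols for the replicate number, a line at the mean and a bar for the SD. *Ngfr* and *Sorcs2* lie higher in all Gli1+ libraries, *Sort1* lies lower in all of them, and the populations of the other 4 genes overlap.

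The values of *Ngfr* also varied little within each population. The SD of its log2 CPM within populations was 0.187, lower than in all but 1.93% of the genes tested, whose median was 0.781. Its mean level over the 6 libraries stood at the 57.9 percentile of the genes tested. GENCODE lists 1 transcript for *Ngfr*, coding for 427 codons, and no other gene shares its exons.

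*Ntrk2* (ENSMUSG00000055254, chr13:58806569-59133970, plus strand) encodes TrkB, the kinase receptor of BDNF and neurotrophin-4. It had 25.1, 12.5 and 14.9 CPM in Gli1+ replicates 1 to 3 and 9.46, 12.7 and 7.88 CPM in Gli1- replicates 1 to 3. The populations overlapped, since Gli1- replicate 2 lay above Gli1+ replicate 2, and the highest value came from Gli1+ replicate 1. The means were 17.5 ± 6.72 and 10.03 ± 2.47 CPM (SD, n = 3). The fitted log2FC was 0.80 (standard error 0.48), and the pairs gave 1.40, -0.03 and 0.91. GENCODE lists 7 protein-coding transcripts of *Ntrk2* with 466 to 821 codons, which include forms without the kinase domain, and gene counts do not separate them.

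*Ntrk3* (ENSMUSG00000059146, chr7:78175959-78738012, minus strand) encodes TrkC, the kinase receptor of neurotrophin-3, and was close to the floor of detection. It had 0, 8 and 4 counts in Gli1+ replicates 1 to 3 and 3, 9 and 6 in Gli1- replicates 1 to 3. Summed over each population these were 12 counts (95% exact Poisson interval 6.20 to 21.0) and 18 counts (10.7 to 28.5), intervals that overlap and cover counting error only. The library with 0 counts is the one in which the fewest genes had any count. A difference in *Ntrk3* was not detectable at this depth.

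*Nradd*, a gene related to *Ngfr* whose product has a death domain, was at 0, 2.64 and 2.15 CPM in Gli1+ libraries and 2.69, 3.65 and 1.75 CPM in Gli1- libraries. Its log2FC of -0.75 had a standard error of 1.27, and the populations overlapped. It was -0.19 without Gli1+ replicate 1, the library at 0, and -2.33 with limma-voom. *Ngfr* stood above *Ntrk2*, *Ntrk3* and *Nradd* in level per exon length in both populations. The length is the union of exons over all transcripts, 19292 bases over 10 transcripts for *Ntrk2*, so it lowers the level of genes with many transcripts. In CPM without length, the Gli1- mean of *Ntrk2* (10.03) was above that of *Ngfr* (8.95), with libraries that overlapped. Per kb of exon, *Ngfr* had 10.6 CPM in Gli1+ cells (9.55 to 11.3 over libraries) and 2.60 in Gli1- cells (2.15 to 2.92). *Ntrk2* had 0.907 (0.646 to 1.30) and 0.520 (0.409 to 0.660).

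*Bdnf* (ENSMUSG00000048482, chr2:109674700-109727007, plus strand) encodes brain-derived neurotrophic factor and was detected in every library at a low level. It had 12, 29 and 67 counts in Gli1+ replicates 1 to 3 and 13, 4 and 22 in Gli1- replicates 1 to 3. These were 0.635, 1.78 and 3.52 CPM against 0.672, 0.265 and 1.16 CPM. The populations overlapped, because Gli1+ replicate 1 was below Gli1- replicates 1 and 3. The means were 1.98 ± 1.45 and 0.7004 ± 0.450 CPM (SD, n = 3). Its fitted log2FC was 1.48 (standard error 0.97), and the pairs gave -0.07, 2.33 and 1.51. Without Gli1+ replicate 3 the log2FC was 0.77. An antisense gene, *Gm45346*, shares 896 exon bases with *Bdnf* and had 0 counts in every library. The preparation as described does not say that strand was kept, so reads of such partners could not be separated.

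*Ntf3* (ENSMUSG00000049107, chr6:126101412-126166910, minus strand), which encodes neurotrophin-3, had 12, 10 and 3 counts in Gli1+ replicates 1 to 3 and 8, 29 and 5 in Gli1- replicates 1 to 3. Gli1- replicate 2 was the highest library, and the populations overlapped. The summed counts were 25 (16.2 to 36.9) and 42 (30.3 to 56.8). The filter excluded *Ntf3*, and no log2FC is given for it.

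*Ntf5*, the gene of neurotrophin-4, is not among the 7 genes and is given because p75NTR binds its product. It had 0, 6 and 11 counts in Gli1+ replicates 1 to 3 and 5, 13 and 5 in Gli1- replicates 1 to 3. The populations overlapped, and the filter excluded *Ntf5* as well.

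**Figure D2:**
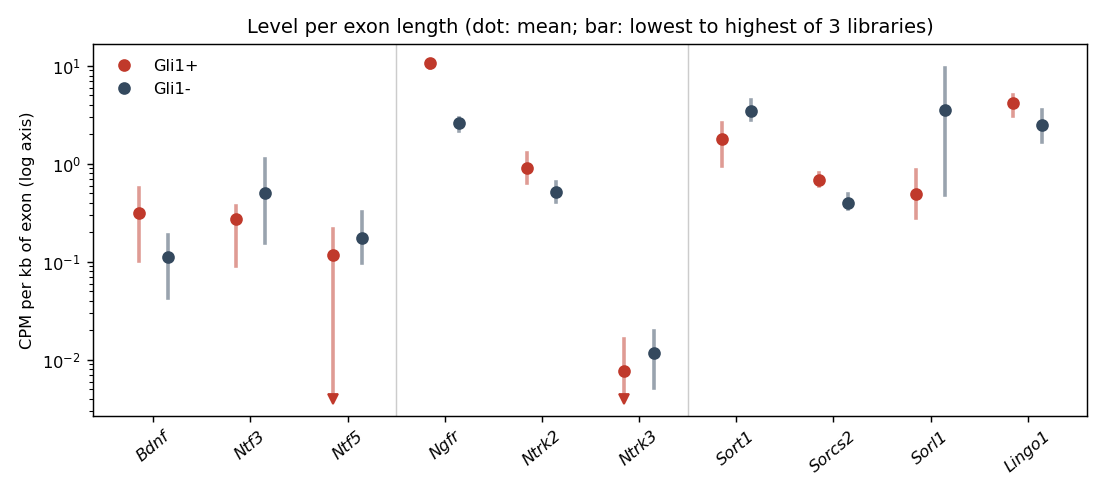
Mean CPM per kb of exon (y axis, log scale) of 3 ligand genes, 3 receptor genes, and 4 genes of sorting and co-receptors in Gli1+ (red) and Gli1- (dark blue) cells, with bars from the lowest to the highest of 3 libraries and downward triangles where a library is at 0. *Ngfr* stands above the other receptor genes shown, at 10.6 in Gli1+ and 2.60 in Gli1- cells.

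*Sort1* (ENSMUSG00000068747, chr3:108284082-108361511, plus strand) encodes sortilin, the co-receptor that binds pro-neurotrophins such as the precursor of BDNF together with p75NTR, and it had the opposite direction to *Ngfr*. It had 378, 118 and 258 counts in Gli1+ replicates 1 to 3 and 656, 321 and 434 counts in Gli1- replicates 1 to 3. In CPM every Gli1+ library was below every Gli1- library, though the nearest libraries differed by a ratio of only 1.06. The means were 13.6 ± 6.38 and 26.1 ± 6.87 CPM (SD, n = 3). The fitted log2FC was -0.94 (standard error 0.50), with pair differences of -0.76, -1.54 and -0.76. An antisense gene, *Gm12523*, shares 338 exon bases with *Sort1* and had 0 counts in every library.

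*Sorcs2* (ENSMUSG00000029093, chr5:36017180-36398139, minus strand) encodes a sortilin-related receptor that also binds p75NTR and pro-neurotrophins. It had 5.19, 5.90 and 7.09 CPM in Gli1+ replicates 1 to 3 and 3.05, 4.31 and 3.07 CPM in Gli1- replicates 1 to 3. The populations did not overlap, with a ratio of 1.20 between the nearest libraries. The log2FC was 0.80 (standard error 0.53) and the pairs gave 0.74, 0.44 and 1.18. Within populations the spread of *Sorcs2* was also small, with an SD of log2 CPM of 0.251, lower than in all but 4.59% of genes.

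Counted over the 5 genes tested, *Ngfr* and *Sorcs2* lay higher and *Sort1* lower in every Gli1+ library. Over all 14801 genes, 8.49% did not overlap between the populations in either direction, 4.04% with Gli1+ above and 4.45% with Gli1+ below. These 3 genes were part of a choice made with the values known, so nothing is read from that count. Without and with the replicate block, edgeR called 0 of the 14801 genes, and so none of the 5. DESeq2 called 30 of all genes without the block and 428 with it, and *Ngfr* alone of the 5 each time. Since the 5 were chosen with their values known, these calls are no test of them. The log2FC values with their standard errors are drawn in the plot of pair differences.

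**Figure D3:**
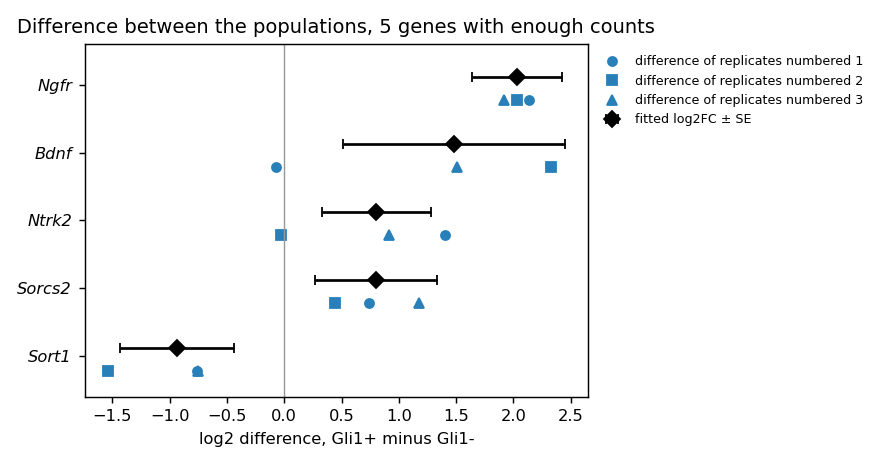
Log2 difference of CPM, Gli1+ minus Gli1- (x axis), of the 5 genes tested, as the difference of each same-numbered pair of libraries (blue symbols) and as the fitted log2FC with its standard error (black diamonds). The pairs of *Ngfr* lie between 1.91 and 2.14, and those of *Bdnf* and *Ntrk2* include a value below 0.

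*Ngfr* lay higher and *Sort1* lower in every Gli1+ library, so their ratio per kb of exon could not overlap between the populations. *Ngfr* over *Sort1* was 3.61, 11.8 and 6.19 in Gli1+ replicates 1 to 3 and 0.479, 0.972 and 0.962 in Gli1- replicates 1 to 3. *Ngfr* over *Sorcs2* was 13.8 to 16.8 and 5.58 to 8.37, and *Ngfr* over *Ntrk2* was 7.33 to 17.5 and 4.14 to 7.14.

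The order of the 7 genes by level per kb differed between the populations. In Gli1+ cells *Ngfr* (10.6) was followed by *Sort1* (1.80), *Ntrk2* (0.907), *Sorcs2* (0.688), *Bdnf* (0.318), *Ntf3* (0.274) and *Ntrk3* (0.00775). *Sort1* and *Ntrk2* overlapped over their libraries, as did *Ntrk2* and *Sorcs2*, and *Bdnf* and *Ntf3*. In Gli1- cells *Sort1* (3.44) came before *Ngfr* (2.60), whose libraries overlapped with those of *Sort1*, and *Ntrk2* (0.520), *Ntf3* (0.506), *Sorcs2* (0.395), *Bdnf* (0.113) and *Ntrk3* (0.0118) followed. *Ntrk2*, *Ntf3* and *Sorcs2* overlapped there, and so did *Ntf3* and *Bdnf*.

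Of the sorting receptors outside the 7, *Sorl1*, which encodes SorLA, had an unadjusted p under 0.05 in edgeR's quasi-likelihood test, with a log2FC of -2.86 (standard error 1.18). It had 184, 60 and 60 counts in Gli1+ replicates 1 to 3 and 2091, 106 and 104 in Gli1- replicates 1 to 3. Gli1- replicate 1 set this difference, and without it the log2FC was -0.19. In that library the 9 leukocyte markers summed to 3326 CPM, against 41.1 to 184 CPM in the other 5, although the sort had removed CD45+ cells, and the part of this in the *Sorl1* value was not tested. *Sorcs1* had at most 1 count in any library, and *Sorcs3* had 0, 0 and 1 counts against 4, 2 and 0.

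Apart from the 7 genes, 8 lists of the pathway held 68 genes of the table, of which 57 were tested, and edgeR called 0 of them. At an unadjusted p under 0.05, 1 was higher in Gli1+ cells (*Mmp3*) and 2 were lower (*Sorl1* and *Tnfrsf19*), or 5.26%, against 3.47% of all genes. With the replicate block the count was 7, where 8.61% of all genes passed, and it was 0 when Gli1- replicate 1 was left out, where 1.77% of all genes passed. The median log2FC of the 57 genes was -0.16, with 22 above 0 and 35 below, beside 0.00 over all genes tested. Without overlap between the populations were 5 genes, *Mmp3* above and *Rtn4*, *Tnfrsf19*, *Ndn* and *Grb2* below, or 8.77%, close to the 8.49% of all genes. A share of that size is not a result about the lists.

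**Figure D4:**
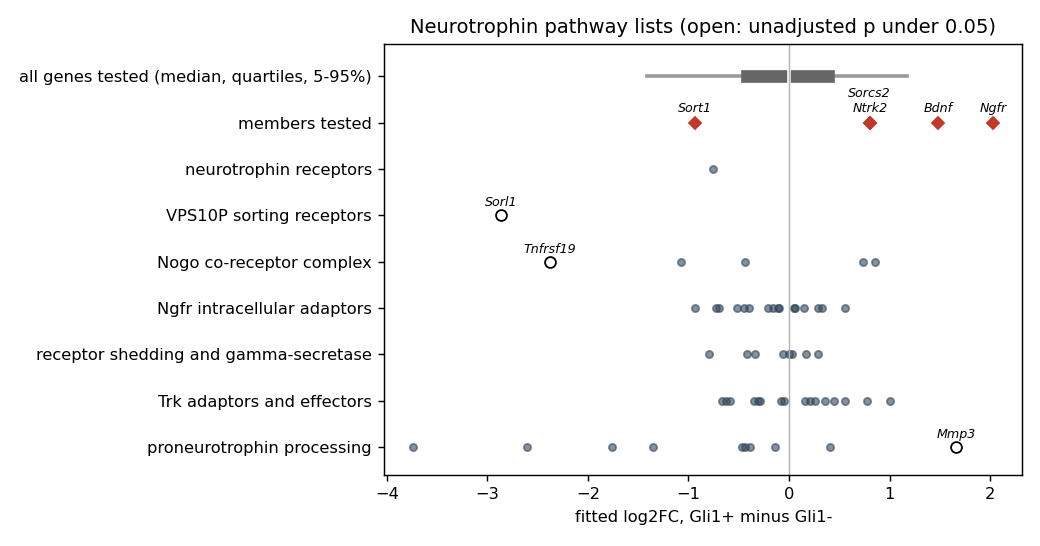
Fitted log2FC, Gli1+ minus Gli1- (x axis), of the tested genes of the pathway lists without the 7 genes (dots; open and named where the unadjusted p was under 0.05), of the 5 members tested (red), and of all 14801 genes as median, quartiles and 5 to 95% range (grey). The dots of most lists lie on both sides of 0, and *Mmp3*, *Sorl1* and *Tnfrsf19* are the open ones.

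In the p75NTR co-receptor complex for myelin inhibitors, *Lingo1* encodes a membrane partner of p75NTR. It stood at 19.6 ± 4.55 CPM in Gli1+ cells and 11.8 ± 4.52 in Gli1- cells (SD, n = 3), with a log2FC of 0.74 (standard error 0.47). The populations overlapped. With edgeR's replicate block *Lingo1* passed the unadjusted threshold as higher in Gli1+ cells, at 0.78 (standard error 0.31), where 8.61% of all genes passed. It did not pass in DESeq2 with the block. *Rtn4r*, which encodes the Nogo receptor, was at 0, 0.921 and 1.63 CPM in Gli1+ libraries and 1.40, 3.05 and 0.952 CPM in Gli1- libraries, so that the populations overlapped. *Rtn4*, the gene of its ligand Nogo, was at 413 ± 23.6 and 559 ± 86.6 CPM. *Tnfrsf19* encodes TROY, a receptor that can stand in for p75NTR in that complex, and had 2.12, 0.983 and 0.788 CPM in Gli1+ replicates 1 to 3 and 11.2, 5.04 and 4.13 CPM in Gli1- replicates 1 to 3. Its log2FC was -2.38 (standard error 0.72), opposite in sign to that of *Ngfr*. Of the list's 9 genes, 5 were tested, and *Lingo2* had 0 counts.

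Among the genes for proteins that act inside the cell on p75NTR signals, 16 of 18 were tested and 0 passed the unadjusted threshold, with log2FC values from -0.94 to 0.55. With the replicate block *Ndn*, the gene of necdin, passed it as lower in Gli1+ cells. The 3 with the most CPM were *Ywhae*, *Arhgdia* and *Rhoa*, which encode a 14-3-3 protein, a GDP dissociation inhibitor and a small GTPase. *Ywhae* had a log2FC of 0.15 and *Arhgdia* of -0.44. *Rhoa* had one of -0.16, and 0.01 without Gli1- replicate 2. All 8 genes of receptor shedding and gamma-secretase were tested, with log2FC values from -0.79 to 0.29, and *Adam17*, a protease that sheds the p75NTR ectodomain, was at 55.3 ± 10.3 and 69.9 ± 10.5 CPM. *Aph1a* and *Psenen*, genes of gamma-secretase subunits, had log2FC values of 0.0032 and -0.41, and the sign of both changed when 1 library was left out.

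The 16 genes of Trk adaptors and effectors were all tested and 0 passed the unadjusted threshold, with a median log2FC of 0.06. With the replicate block *Gab1*, an adaptor gene, passed it as lower in Gli1+ cells, as did *Gab1* and *Grb2* in DESeq2 with the block. *Ptpn11*, *Shc1* and *Rapgef1* had the most CPM, with log2FC values of 0.56, -0.31 and 0.44. Leaving out 1 library gave 0.13 to 0.87, -0.58 to -0.06 and 0.08 to 0.73 for these genes. Of the proneurotrophin processing list, 10 of 12 were tested. *Mmp3*, the gene of a matrix metalloproteinase that cuts proneurotrophins, had 9811 ± 5756 CPM in Gli1+ cells and 3106 ± 1101 in Gli1- cells (SD, n = 3), with a log2FC of 1.66 (standard error 0.65). *Plau*, the gene of urokinase, and *Furin*, the gene of a convertase that cuts proneurotrophins, had log2FC values of 0.41 and -0.47, and both overlapped between the populations.

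Markers of cell types that are known to express *Ngfr* were read beside it. *Sox10*, a marker of Schwann cells, had 0, 6 and 4 counts in Gli1+ replicates 1 to 3 and 31, 11 and 4 in Gli1- replicates 1 to 3. The 9 Schwann markers summed to 25.7 to 56.7 CPM in Gli1+ libraries and 39.3 to 65.2 CPM in Gli1- libraries, most of it from *Mbp*. Without *Mbp* the sum was 2.42 to 2.83 CPM against 4.97 to 6.50 CPM, lower in all Gli1+ libraries. The 7 neuron markers summed to 1.75 to 18.5 and 3.81 to 4.24 CPM, and *Isl1* was at 0 in all 6 libraries.

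The summed levels of other cell types moved with the populations in part. Fibroblast and perichondrium markers summed to 77.3 to 368 CPM in Gli1+ libraries and 371 to 1549 CPM in Gli1- libraries, and endothelial markers to 11.7 to 17.8 against 32.1 to 84.3 CPM. *Erg* made most of the endothelial sum, and without it the sums were 2.03 to 2.96 against 3.33 to 12.98 CPM in cells sorted as CD31-. Fibroblast and endothelial sums were lower in every Gli1+ library, as *Sort1* was, and their part in its value was not tested. The fibroblast sums nearly touched, at 368 and 371 CPM. Of the 8 genes tested on that list, only *Pdgfra* lay lower in every Gli1+ library. *Postn* was at 212 CPM in Gli1+ replicate 1, above Gli1- replicates 1 and 3 (59.3 and 49.3 CPM). Pericyte and smooth muscle markers summed to 578 to 982 CPM and 303 to 743 CPM, most of it from *Cspg4*, and without *Cspg4* to 25.5 to 121 and 24.97 to 59.8 CPM. Of the 7 genes tested on the pericyte and smooth muscle list, *Rgs5*, *Notch3* and *Myh11* were lower in every Gli1+ library. The others overlapped, with log2FC values of 2.53 for *Cnn1*, 1.24 for *Acta2*, 0.22 for *Cspg4* and -0.21 for *Mcam*. *Kcnj8*, which was not tested, had 0 counts in each Gli1+ library and 6, 8 and 1 in Gli1- replicates 1 to 3. Tenocyte markers summed to 287 to 1026 and 587 to 3152 CPM, and the summed levels of both lists overlapped. The sums of osteoblast, skeletal muscle and erythroid markers overlapped as well. In that order they were 1270 to 5187 against 1622 to 7184 CPM, 3.52 to 37.2 against 5.50 to 30.5 CPM, and 0 to 5.34 against 0.952 to 19.9 CPM. Most of the osteoblast sum came from *Spp1*. On that list *Sp7* was higher in every Gli1+ library, with a log2FC of 1.6 (standard error 0.74). *Dmp1*, which was not tested, was lower in every one, with 0, 3 and 7 counts against 23, 41 and 9.

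The genes whose profile over the 6 libraries was most like that of *Ngfr* were found by the mean absolute difference of log2 CPM after each gene was centred on its mean. Over 13459 genes with a mean of at least 1 CPM the median difference was 1.09. *Gm16685*, annotated as an antisense RNA on chromosome 3, was nearest at 0.130, with 9.10, 8.60 and 10.8 CPM in Gli1+ libraries and 1.91, 2.12 and 2.80 CPM in Gli1- libraries. *Fndc9* (0.227), *Pde8b*, a phosphodiesterase gene (0.262), *Nos1*, the gene of neuronal nitric oxide synthase (0.265), and *Sez6l* (0.273) followed. These genes were picked for this likeness, which therefore has no test.

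**Figure D5:**
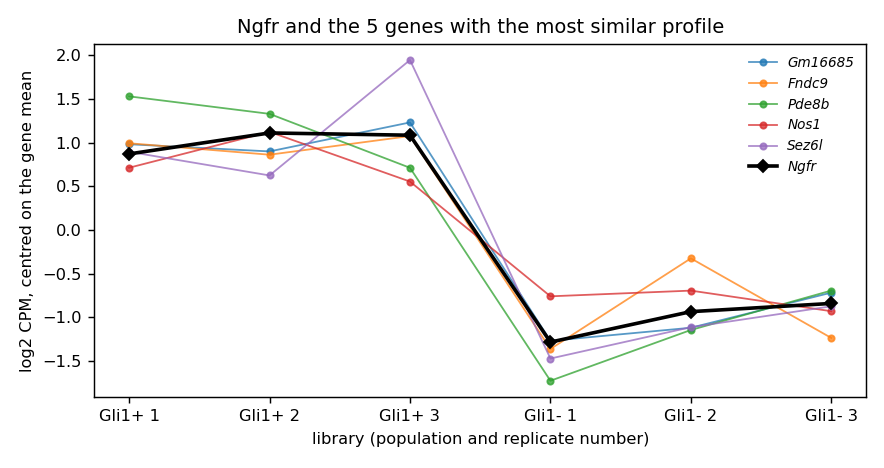
Log2 CPM centred on each gene's mean (y axis) in the 6 libraries (x axis) of *Ngfr* (black) and the 5 genes with the smallest mean absolute difference from it. All 6 genes lie above their mean in the Gli1+ libraries and below it in the Gli1- libraries, as the choice of genes fixes.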

How the data were processed

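The authors deposited 1 table of raw counts per gene for the 6 libraries, with gene coordinates and exon lengths. The submitters' processing notes name HISAT2 2.0.5, featureCounts 1.5.0-p3 and the build mm10, while the use of strand and the annotation release are not given in the sources used here. Of the 54532 genes, 54409 were found in GENCODE M21. All per-sample columns were used (0 were left out).

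Genes were filtered with filterByExpr (minimum count of 10), scaled by TMM and fitted with edgeR 4.0.16 (R 4.3.3) on population alone, with Benjamini-Hochberg adjustment over all genes tested and a prior count of 2 for log2 CPM. A population was at the floor where no library had more than 3 counts. The code of the fit was run on simulated counts with independent libraries and less spread than these data. That run does not measure the error rate or power of the fit here. DESeq2 1.42.0, limma 3.58.1 (voom), other scalings and filters, a replicate block and leaving out each library gave 15 alternatives. After each population mean was removed, libraries with the same number correlated at 0.223, 0.720 and 0.471 across genes, and 2 other combinations were above 0.1 (Gli1+ 1 with Gli1- 3 at 0.275, Gli1+ 3 with Gli1- 1 at 0.107). Both populations came from the same mice, but no source says that equal numbers mark the same mice. Same-numbered libraries were taken as pairs for the pair differences and the replicate block alone. The main fit, on population alone, did not use these pairs.

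The members, pathway lists and markers were chosen with earlier results of these data known. The text names the 7 members, *Gli1*, the ligands, receptors and sorting receptors reported, of each other list the 3 genes at the highest level and any with an unadjusted p under 0.05, and the 5 profiles most like *Ngfr*. *Rtn4r*, *Lingo2*, *Ndn*, *Gab1*, *Grb2* and *Mmp9* were added after their values were seen. Of 76 pathway genes listed, 75 were in the table. A few listed genes are not reported here and enter no list count.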

Additional observations from a re-analysis of the deposited data

How the results depend on the processing

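The log2FC of *Ngfr* was 1.91 to 2.12 over the 15 alternatives, and 1.91 to 2.12 when each library was left out in turn. DESeq2's Wald test called it at 2.02, and DESeq2 with the replicate block at 2.03, while edgeR with the replicate block gave 2.04 (standard error 0.28) and no call. The other tested members kept their sign and were called under no alternative, at 0.77 to 2.05 for *Bdnf* (14 alternatives, since the stricter filter removed it), 0.43 to 0.98 for *Ntrk2*, 0.66 to 0.95 for *Sorcs2* and -1.35 to -0.65 for *Sort1*. The count of members without overlap was 3 to 4, and it was 4 only where a library was left out. The share of all genes in those settings is not given, so nothing is read from this count. Genes called numbered 267 without a filter (20 higher, 247 lower), 30 with DESeq2 (15 and 15) and 428 with DESeq2 and the replicate block (115 and 313), and 0 elsewhere. Without a filter the median log2FC of all genes was -0.11. Of the pathway genes, 2 were called without a filter, *Mmp9* and *Sorl1*, both as lower in Gli1+ cells. *Mmp9* had 312, 122 and 121 counts in Gli1+ replicates 1 to 3 and 7709, 60 and 35 in Gli1- replicates 1 to 3. Its lower level thus rested on Gli1- replicate 1, and pairs 2 and 3 were higher in Gli1+ cells (0.89 and 1.72). DESeq2 with the replicate block called 2 of the pathway genes, *Mmp3* as higher and *Tnfrsf19* as lower. Those with an unadjusted p under 0.05 numbered 5 without a filter, 7 with the replicate block, 8 with DESeq2 and the block, and 0 to 5 with a library left out (0 without Gli1- replicate 1, 1 without Gli1+ replicate 3, 5 without Gli1- replicate 3), where the share of all genes was 4.61%, 8.61%, 11.7% and, with a library left out, 1.77% to 7.65%. Signs turned with a library left out for *Rhoa* (-0.41 to 0.013), *Aph1a* (-0.23 to 0.32) and *Psenen* (-1.44 to 0.30). *Aph1a*, at 0.0032, also turned with DESeq2 size factors (-0.016), total counts (-0.044), no filter (-0.029), the stricter filter (-0.0068), DESeq2 (-0.016), limma-voom (-0.13), the replicate block (-0.11) and DESeq2 with the block (-0.12), and the cause was not tested. Counts of *Ntf3* and *Ntrk3* were too low for the filter.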
